A study of Mus musculus with 15 samples.

Results

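The genes of stalled-ribosome rescue and nascent-chain quality control described here, 10 in number, were read from a bulk RNA sequencing study of mouse tissue: Ltn1, Nemf, Tcf25, Ankzf1, Pelo, Hbs1l, Abce1, Zfp598, Ascc3 and Gtpbp2. They were selected by symbol from a list of factors with known roles in the pathway, and make up 10 of the 22524 rows of each deposited table. All 10 were found, and all 10 passed the filter on low counts, so each was among the 14989 genes tested. The animals were female C57BL/6 mice aged 18 months. Of these mice, 7 carried 1 Rps9 D95N allele and 1 Rps9 WT allele (D95N, n = 7), and their littermates carried 2 Rps9 WT alleles (WT, n = 8). Each library came from a mouse with its own number, and the labels name no treatment, batch, litter or date.

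Ribosomes that stop on an mRNA are hit from behind by the next ribosome, and the collision is the signal for rescue. The ubiquitin ligase ZNF598 (Zfp598 in the mouse) marks small-subunit proteins of the collided ribosomes, and a complex built on the helicase ASCC3 takes the leading ribosome apart. Pelota, with the GTPase HBS1L, enters an empty or blocked decoding site, and the ATPase ABCE1 then splits the subunits. The GTPase GTPBP2 acts beside this pair, and its loss in mice that also lack a brain-rich arginine tRNA leads to neurodegeneration. A large subunit still holding an unfinished chain is bound by NEMF, which adds C-terminal tails, and by the ubiquitin ligase listerin (Ltn1) with its partner TCF25. ANKZF1 cuts the chain from its tRNA so that it can be degraded. Rps9 encodes a protein of the small subunit whose bacterial counterpart is known for mutations that lower the accuracy of decoding. The comparison of D95N with WT therefore asks whether mRNAs of the rescue machinery differ in level in mice with 1 altered Rps9 allele.

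Libraries held between 23349381 and 34587082 counts assigned to genes. The series design names brain cortex, whereas the tissue field names skeletal muscle. The 10 neuronal markers summed to 9759 to 11154 CPM in D95N and 9929 to 10503 CPM in WT, while the 12 skeletal muscle markers summed to 10.4 to 14.1 and 10.9 to 39.2 CPM. CPM, the library-scaled count, was scaled by library totals for these marker sums and by TMM effective library sizes everywhere else. No muscle marker was at 0 in every library, and the most abundant, Acta1, averaged 6.18 CPM against 2798 CPM for the neuronal Snap25. Rps9 itself, which both alleles encode, was at 65.3 ± 3.02 CPM in WT (SD, n = 8) and 63.1 ± 6.13 CPM in D95N (SD, n = 7). The log2 difference was -0.05 ± 0.05 (SE; edgeR quasi-likelihood test, adjusted p = 0.505), and a count per gene cannot separate the alleles. Across all genes, libraries D95N 41 and D95N 42 lay nearer to WT, with mean absolute log2 differences from the WT mean of 0.179 and 0.155, than the other 5 D95N libraries at 0.257 to 0.289. Blood markers were lower in D95N for 8 of 9 genes, with sums of 37.5 to 152 CPM against 82.7 to 319.5 CPM (two-sided exact permutation test, p = 0.00606). Meningeal markers were lower for 5 of 10, with sums of 85.6 to 179 CPM against 161 to 220.1 CPM (two-sided exact permutation test, p = 0.000311). Endothelial markers summed to 200.3 to 274 CPM against 224 to 335 CPM (two-sided exact permutation test, p = 0.0334), with 1 of 6 called lower. Of the neuronal markers 4 of 10 were called higher and 1 lower, of the astrocyte markers 1 of 6 higher and 3 lower, and of the striatal markers 5 of 10 lower, with sums that overlapped between genotypes. A fit with blood and meningeal marker scores as covariates is given below for the called genes and for counts of calls only. Neuronal, astrocyte and endothelial scores were not used as covariates. In bulk tissue, fewer cells of a type and less RNA per cell cannot be told apart.

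The 10 genes spanned a wide range of levels. Values between genes were compared per kilobase of merged exons (CPM per kb), using 8 WT libraries. Tcf25 stood highest at 110 ± 1.43 CPM per kb (SD, n = 8), followed by Abce1 at 17.0 ± 0.522. Pelo at 9.70 ± 0.665, Ltn1 at 9.58 ± 0.314, Gtpbp2 at 9.19 ± 0.281 and Zfp598 at 8.41 ± 0.540 formed a middle group in which the WT ranges of each neighbouring pair overlapped. Hbs1l at 6.91 ± 0.302, Nemf at 4.47 ± 0.172, Ankzf1 at 3.09 ± 0.142 and Ascc3 at 1.55 ± 0.0603 followed, with no overlap between neighbours in that part of the order. The chain-tailing factor Nemf and the ligase Ltn1, which act on the same large subunit, were thus at different levels per length, while the splitting pair Pelo and Hbs1l also stood apart. Merged exons take in every annotated transcript, 12 for Nemf, 2 for Ltn1, 10 for Hbs1l and 1 for Pelo. The order therefore depends in part on the annotation. Pelo is a short gene with 1600 exon bases, so its place rests on 417 to 594 counts per library, whereas Tcf25 had 14898 to 22966.

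**Figure D1:**
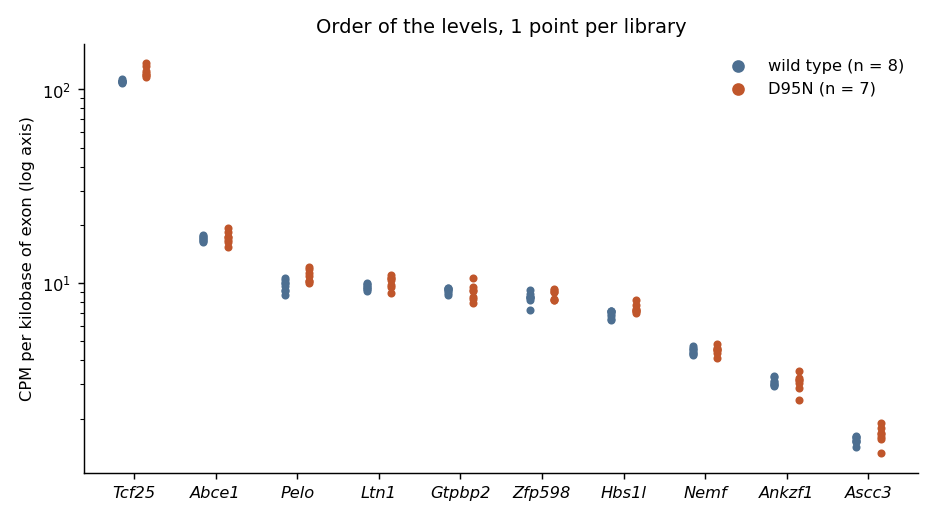
Levels of the 10 genes in CPM per kilobase of merged exons, on a log axis, with 1 point per library for 7 D95N and 8 WT libraries. Tcf25 is highest, at 110 ± 1.43 CPM per kb in WT (SD, n = 8), and Ascc3 is lowest, at 1.55 ± 0.0603.

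Between genotypes, 2 of the 10 genes were called higher in D95N, Tcf25 and Pelo, and none was called lower (edgeR quasi-likelihood test, Benjamini-Hochberg adjusted p under 0.05 over all tested genes). Across all tested genes 26.8% were called, 15.2% higher and 11.6% lower, so a count of 2 of 10 is near the background. The log2 fold changes of the 10 genes ran from -0.03 to 0.17, with 8 above 0 and a median of 0.07. Over all tested genes the median was -0.01, with 48.1% above 0, and the median absolute value was 0.116. Scaling moved the balance of calls over all genes, from 2272 higher and 1744 lower to 1808 and 2536 with library totals and 1926 and 2351 with upper-quartile factors. Tcf25, Pelo, Hbs1l, Ltn1 and Ascc3 were above 0 in each of 11 other settings, while Zfp598 was in 10, Abce1 in 9 and Nemf in 7. No gene of the 10 differed by more than 1.13-fold between the group means.

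**Figure D2:**
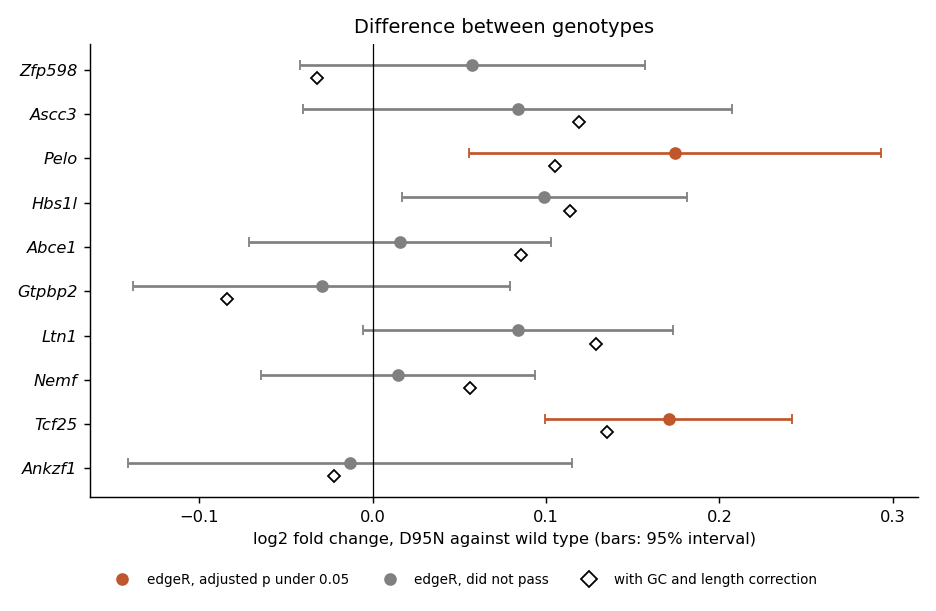
Log2 fold changes of D95N against WT for the 10 genes with 95% intervals from the edgeR fit of 7 and 8 libraries. The intervals of Tcf25, 0.10 to 0.24, and of Pelo, 0.06 to 0.29, lie farthest above 0, and that of Hbs1l starts at 0.02.

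Tcf25 lies on chr8:123373753-123403835 (GRCm38, plus strand, ENSMUSG00000001472, 11 annotated transcripts) and encodes the listerin partner of the ribosome quality control complex. WT libraries were at 583, 594.5 and 608 CPM (lowest, median and highest), and D95N libraries at 624, 658 and 734 CPM. Every D95N library thus lay above every WT library, a separation seen in 1.81% of all tested genes, with 1.46% separated the other way. The group means were 594 ± 7.72 CPM in WT (SD, n = 8) and 669 ± 39.7 CPM in D95N (SD, n = 7). The log2 fold change was 0.17 ± 0.03 (SE), a 1.13-fold higher level with a 95% interval of 1.07 to 1.18 (edgeR quasi-likelihood test, adjusted p = 0.00189). A two-sided exact permutation test gave p = 0.000155, the smallest that regrouping 7 and 8 libraries allows. D95N 4 and D95N 21, at 734 and 710 CPM, were the highest and D95N 41, at 624 CPM, the closest to WT. With blood and meningeal marker scores as covariates the value was 0.13 and did not pass (edgeR, adjusted p = 0.288), a fit in which 10 of all genes were called. Tcf25 lies inside Gm20388, a protein-coding model on the same strand with no shared exon bases. Gm20388 was at 82.3 ± 3.13 CPM in WT (SD, n = 8) and 88.9 ± 6.38 CPM in D95N (SD, n = 7), with 4 D95N libraries above all WT libraries. Its log2 fold change was 0.11 ± 0.04 (SE) and did not pass (edgeR quasi-likelihood test, adjusted p = 0.0574).

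Pelo lies on chr13:115088355-115090186 (GRCm38, minus strand, ENSMUSG00000042275, 1 annotated transcript) and encodes the factor that recognises the stalled ribosome. WT libraries were at 13.9, 15.8 and 16.9 CPM and D95N libraries at 15.98, 17.5 and 19.5 CPM (lowest, median and highest). The groups overlapped: 4 D95N libraries exceeded the highest WT library, and all 7 exceeded the WT median. The means were 15.5 ± 1.06 CPM in WT (SD, n = 8) and 17.5 ± 1.37 CPM in D95N (SD, n = 7). Its log2 fold change of 0.17 ± 0.06 (SE), a 1.13-fold difference with a 95% interval of 1.04 to 1.23, passed narrowly (edgeR quasi-likelihood test, adjusted p = 0.0299; two-sided exact permutation p = 0.00824). The call was lost when any 1 of D95N 21, D95N 4, D95N 50, WT 11, WT 43 or WT 8 was left out, with values of 0.15 to 0.17 and adjusted p of 0.0543 to 0.0649 by edgeR. It was also lost after correction for GC content and transcript length, at 0.10 (edgeR, adjusted p = 0.177).

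Where Pelo sits in the genome bears on what its count holds. The whole gene lies inside Itga1, an integrin subunit gene on the same strand, with no shared exon bases. Itga1 had a log2 fold change of -0.02 (edgeR, adjusted p = 0.919). GENCODE M21 also places a protein-coding model, Gm49395, over 739 of Pelo's exon bases (46.2%) on the same strand, and an antisense model, Gm10734, over 468 (29.2%). Neither model has a row among the deposited counts, and how reads in the shared stretches were assigned is not stated in the sources used. Pelo is therefore an uncertain count.

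**Figure D3:**
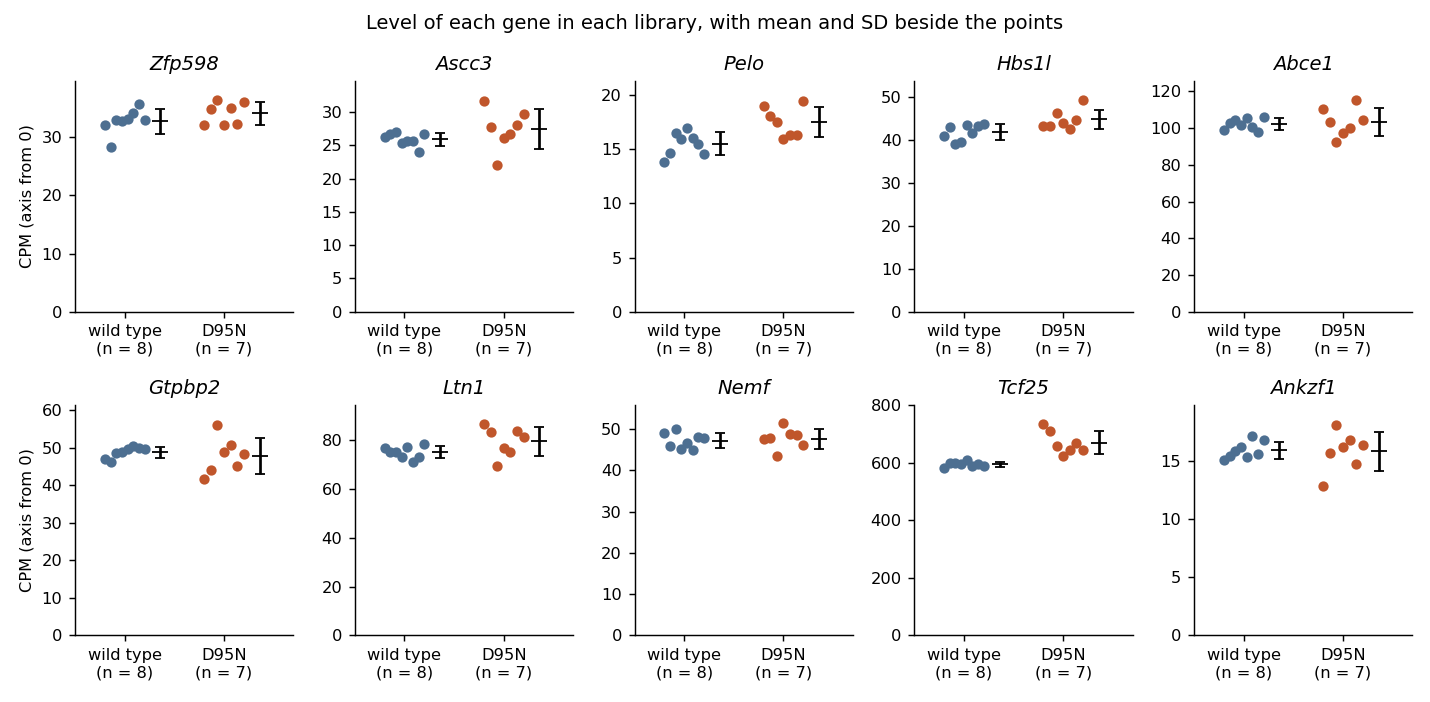
CPM of each of the 10 genes in each library, 1 panel per gene with its own axis, for 7 D95N and 8 WT libraries with group means and SD. Tcf25 is the only panel in which all D95N points, 624 to 734 CPM, lie above all WT points, 583 to 608 CPM.

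The promoter stretches of the called genes are shown because both were higher in D95N, together with that of Abce1, the only gene of the 10 with a full cyclic AMP response element, the site of CREB and ATF factors. Each is the 150 bases before the first annotated start, from RefSeq on GRCm38.p6, written 5′ to 3′ on the gene's strand, with motif matches in capitals.
Tcf25, chr8:123373561-123373710, plus strand: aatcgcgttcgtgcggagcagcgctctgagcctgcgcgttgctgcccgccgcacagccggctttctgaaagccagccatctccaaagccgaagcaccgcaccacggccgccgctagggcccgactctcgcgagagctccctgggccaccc
Pelo, chr13:115090187-115090336, minus strand: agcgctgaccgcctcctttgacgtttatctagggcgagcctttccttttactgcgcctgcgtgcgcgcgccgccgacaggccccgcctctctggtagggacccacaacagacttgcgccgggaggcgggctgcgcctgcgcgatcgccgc
Abce1, chr8:79711741-79711890, minus strand: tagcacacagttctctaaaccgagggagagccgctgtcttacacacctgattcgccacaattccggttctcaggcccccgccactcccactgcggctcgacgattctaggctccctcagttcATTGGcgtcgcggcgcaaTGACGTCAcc

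Neither stretch of the called genes held a whole match to the motifs searched. Their GC content was 69.3% for Tcf25 and 68.7% for Pelo, against 59.3% for Abce1. Stretches of the genes that were not called ran from 37.3% for Nemf to 68.7% for Hbs1l. Tcf25 was thus the highest of the 10, and Pelo was level with Hbs1l, which was not called. Whether promoter GC content sets the called genes apart was not tested. The capitals in Abce1 are a CCAAT box read on the other strand, ATTGG, and the response element TGACGTCA, which begins 10 bases before the end of the printed stretch. Motifs were counted on both strands in the 250 bases before the RefSeq start of 32544 promoters, where all 10 genes had an entry. TGACGTCA was in 1.55% of windows and in 1 of the 10 genes. CCAAT was in 33.8% of windows and in Ltn1, Nemf, Ankzf1 and Abce1, whereas the GC box GGGCGG was in 33.0% and in Hbs1l, Zfp598 and Ascc3. The core TGACNNNGC of the antioxidant response element was in 10.2% of windows and in Ascc3 and Pelo, where it runs past the end of the printed stretch. CACGTG, TGATGNAA (the C/EBP-ATF composite of the integrated stress response), CCGGAAG and the NRF1 palindrome, found in 6.03%, 3.40%, 6.95% and 0.784% of windows, were in none of the 10. A match is a description of letters and says nothing of binding, and Abce1, with its response element, had no called difference.

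The partners of Pelo in ribosome splitting did not pass the test. Hbs1l (chr10:21295979-21368898, plus strand, ENSMUSG00000019977), the GTPase that delivers Pelota, came closest. Its WT libraries were at 39.1, 42.4 and 43.6 CPM and its D95N libraries at 42.6, 44.1 and 49.3 CPM (lowest, median and highest). Although 4 D95N libraries exceeded all WT libraries, the lowest lay within the WT range. The log2 fold change was 0.10 ± 0.04 (SE), with a 95% interval of 0.02 to 0.18 (edgeR quasi-likelihood test, adjusted p = 0.0688; two-sided exact permutation p = 0.0106). It passed after GC and length correction, at 0.11 (edgeR, adjusted p = 0.0352), and without D95N 42, at 0.11 (edgeR, adjusted p = 0.0449). Of 11 other settings Hbs1l passed in 2, and with each of 15 libraries left out in turn it passed in 1. With library totals it was 0.06 (edgeR, adjusted p = 0.239).

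Abce1 (chr8:79683462-79711740, minus strand, ENSMUSG00000058355), the ATPase that separates the subunits, was at 97.7, 102 and 106 CPM in WT and 92.5, 103 and 115 CPM in D95N (lowest, median and highest). The D95N group lay on both sides of WT: 2 libraries were above all WT and 2 below. Its log2 fold change of 0.02 ± 0.04 (SE) had a 95% interval of -0.07 to 0.10 (edgeR quasi-likelihood test, adjusted p = 0.807). Gtpbp2 (chr17:46161032-46169370, plus strand, ENSMUSG00000023952), the rescue GTPase with a known role in neurons, was at 46.2, 49.2 and 50.4 CPM in WT and 41.8, 48.3 and 56.2 CPM in D95N. Again D95N libraries fell on both sides, with 2 above and 3 below all WT libraries. The log2 fold change was -0.03 ± 0.05 (SE), with a 95% interval of -0.14 to 0.08 (edgeR quasi-likelihood test, adjusted p = 0.705).

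At the step where collisions are recognised, neither gene passed. Zfp598 (chr17:24669687-24682016, plus strand, ENSMUSG00000041130), the ligase that marks collided ribosomes, was at 28.3, 32.9 and 35.7 CPM in WT and 32.03, 34.9 and 36.3 CPM in D95N. D95N libraries lay above all WT in 2 cases and below in none. A log2 fold change of 0.06 ± 0.05 (SE) was fitted, with a 95% interval of -0.04 to 0.16 (edgeR quasi-likelihood test, adjusted p = 0.385). Ascc3 (chr10:50592669-50851485, plus strand, ENSMUSG00000038774), the helicase that dismantles the leading ribosome, was at 23.9, 25.9 and 27.0 CPM in WT and 22.1, 27.8 and 31.6 CPM in D95N. D95N libraries lay above all WT in 4 cases and below in 1, D95N 28. The log2 fold change was 0.08 ± 0.06 (SE), with a 95% interval of -0.04 to 0.21 (edgeR quasi-likelihood test, adjusted p = 0.306). Without D95N 28 it was 0.13 and passed (edgeR, adjusted p = 0.0444). That was the only call of Ascc3, in 1 of 15 libraries left out in turn and 0 of 11 other settings. Without D95N 4 it was 0.05 (edgeR, adjusted p = 0.556).

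Of the genes that act on the chain left in the large subunit, only Tcf25 passed. Ltn1 (chr16:87376651-87432612, minus strand, ENSMUSG00000052299), the listerin ligase, was at 71.3, 75.3 and 78.5 CPM in WT and 69.6, 81.4 and 86.8 CPM in D95N. In D95N, 4 libraries were above all WT libraries and D95N 28 was below them. Its log2 fold change was 0.08 ± 0.04 (SE), with a 95% interval of -0.01 to 0.17 (edgeR quasi-likelihood test, adjusted p = 0.151). Without D95N 28 it was 0.11 and passed (edgeR, adjusted p = 0.0275). After GC and length correction it was 0.13 and passed (edgeR, adjusted p = 0.0126). Those were the only calls of Ltn1, in 1 of 15 libraries left out in turn and 1 of 11 other settings. Without D95N 4 its log2 fold change was 0.06 (edgeR, adjusted p = 0.277), and with library totals it was 0.05 and did not pass.

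Nemf (chr12:69310522-69357165, minus strand, ENSMUSG00000020982), the tailing factor, was at 44.9, 47.1 and 50.03 CPM in WT and 43.5, 47.7 and 51.3 CPM in D95N. The means were 47.2 ± 1.81 CPM (SD, n = 8) and 47.6 ± 2.42 CPM (SD, n = 7), and 5 of 7 D95N libraries lay within the WT range. The log2 fold change was 0.01 ± 0.04 (SE), with a 95% interval of -0.06 to 0.09 (edgeR quasi-likelihood test, adjusted p = 0.801). Ankzf1 (chr1:75192151-75199387, plus strand, ENSMUSG00000026199), the enzyme that frees the chain, was at 15.1, 15.7 and 17.1 CPM in WT and 12.8, 16.2 and 18.1 CPM in D95N. One D95N library was above and 2 were below all WT libraries. For Ankzf1 the log2 fold change was -0.01 ± 0.06 (SE), with a 95% interval of -0.14 to 0.12 (edgeR quasi-likelihood test, adjusted p = 0.895). Both genes share exon bases with genes on the opposite strand, Nemf 1.57% with Klhdc2, and Ankzf1 9.82% with Glb1l and 0.895% with Atg9a. Hbs1l shares 4.40% with an antisense gene that has no row among the deposited counts. Reads in those stretches cannot be given to 1 strand without a stated strand setting. Klhdc2, Glb1l and Atg9a had log2 fold changes of -0.02, -0.02 and 0.02 and none passed (edgeR, adjusted p = 0.672, 0.897 and 0.734).

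The spread among D95N animals was larger than among WT animals for 9 of the 10 genes, as it was for 83.1% of all tested genes. The ratio of the SD of log2 CPM, D95N over WT, had a median of 2.37 over the 10 genes against 1.62 over all tested genes. Tcf25 had the largest ratio, 4.51, since its WT libraries varied by a coefficient of variation of only 1.30% and its D95N libraries by 5.94%. Gtpbp2, Ascc3, Ankzf1, Abce1 and Ltn1 had ratios of 3.19, 2.88, 2.43, 2.42 and 2.32, and Zfp598 had 0.850. In WT, counting error alone gives coefficients of variation of 0.727% for Tcf25 and 4.44% for Ankzf1, whose observed 4.60% was close to it. In D95N Ankzf1 varied by 10.6%, Ascc3 by 10.98% and Gtpbp2 by 10.04%.

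D95N 28 and D95N 4 lay at opposite ends of the 15 libraries for Ltn1, Ascc3, Ankzf1 and Gtpbp2, 4 of the 10 genes. This pair of libraries was picked after values were seen, and the share over all tested genes is not given here. D95N 28 was the lowest of all 15 libraries for Ltn1, Nemf, Abce1 and Ascc3, and the highest for Ankzf1, Gtpbp2 and Zfp598. D95N 4 was the highest for Ltn1, Ascc3 and Tcf25 and the lowest for Ankzf1 and Gtpbp2. GC content moved with this split for the genes of low GC and for part of the others. The genes low in D95N 28 have transcripts of 40.3% to 42.6% GC. D95N 28 minus D95N 4 had a median of -0.287 (log2) over those 4 genes. Its sign was fixed in advance, since D95N 28 was the lowest library for each of them. The same difference had a median of 0.182 over the 5 genes with 50.8% to 59.4% GC. Of these the called genes went the other way, Tcf25 at -0.16 and Pelo at -0.11. Across all tested genes the same difference went from a median of -0.22 for 848 genes under 40% GC, through -0.15, -0.05, 0.06 and 0.16 in steps of 5 percentage points, to 0.31 for 714 genes over 60%. Relative to WT, genes of at least 50% GC minus genes under 45% GC had a median shift of 0.306 in D95N 28, 0.125 in D95N 50 and 0.114 in D95N 21. The shift was 0.00646 to 0.0354 in the other D95N libraries and -0.0503 to 0.0451 in WT.

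**Figure D4:**
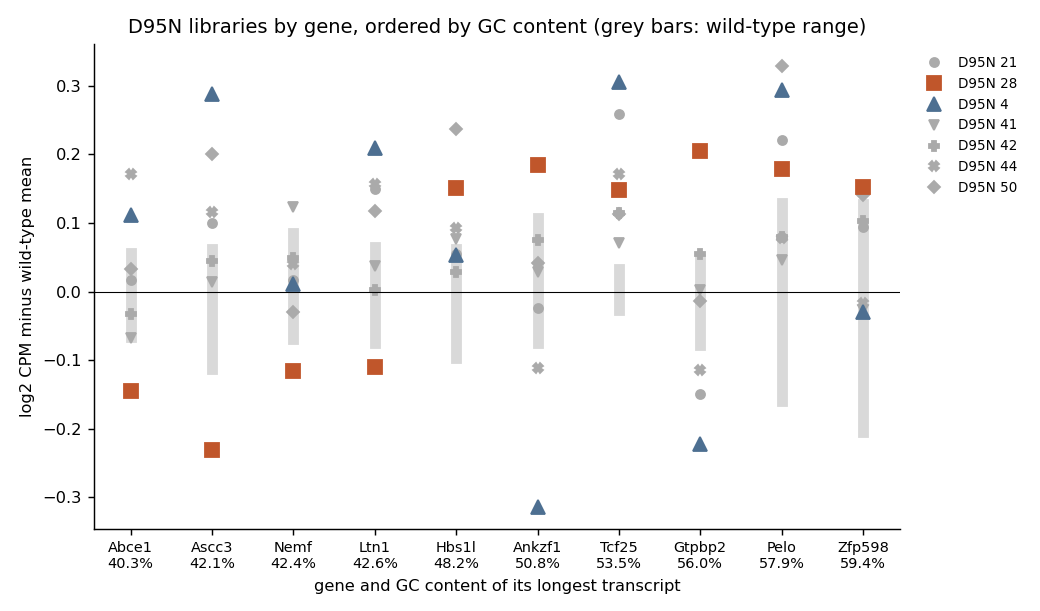
Log2 CPM minus the WT mean (vertical axis) for the 10 genes in the 7 D95N libraries. Genes stand at equal steps along the horizontal axis, in order of transcript GC content in percent. D95N 28 lies below all WT libraries for the 4 genes of 40.3% to 42.6% GC and above all WT libraries for the other 6.

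When each library was corrected for a smooth trend in GC content and transcript length over all genes, 8 of the 10 genes had a smaller D95N SD. The share over all tested genes is not given here, so the count cannot be read as particular to the 10. The median D95N SD of log2 CPM fell from 0.109 to 0.0854, and that of WT from 0.0561 to 0.0507. The difference between D95N 28 and D95N 4 went from -0.26 to -0.05 for Abce1, from 0.18 to -0.01 for Zfp598 and from -0.32 to -0.15 for Ltn1. It was 0.50 before and after for Ankzf1, and 0.43 and 0.35 for Gtpbp2. For 3 genes it grew, from -0.16 to -0.20 for Tcf25, from -0.11 to -0.27 for Pelo and from 0.10 to 0.17 for Hbs1l. Tcf25 passed in the corrected fit, at 0.13 (edgeR, adjusted p = 0.00723). Abce1 was then at 0.09 (edgeR, adjusted p = 0.0667) and Ascc3 at 0.12 (edgeR, adjusted p = 0.0865). What the trend with GC content stems from was not tested.

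Profiles over the 15 libraries were compared by the root mean square difference of log2 CPM, each gene centred on its own mean. Among the 10, Ltn1 and Abce1 (0.0546), Ankzf1 and Gtpbp2 (0.0564) and Ltn1 and Ascc3 (0.0589) were most alike. Ankzf1 and Ascc3 were least alike (0.208). The alike pairs share a GC range, and libraries and depth are common to every point, so these values only describe. Outside the 10, the genes most like Tcf25 among 13810 genes of at least 1 CPM were Pitpna (0.0309) and Capzb (0.0380), against an own root mean square of 0.101 for Tcf25. The genes most like Pelo were Brsk2 (0.0637) and Coro2b (0.0643), against 0.131 for Pelo.

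Other genes of the same pathways were taken from 6 lists by role. Of 64 tested genes 8 were called higher and 5 lower, or 20.3%, against 26.8% of all tested genes, and the median log2 fold change was 0.01. The calls were 5 higher and 8 lower with library totals, and 6 and 8 with upper-quartile factors. The calls were uneven across the steps. Among 17 genes that sense collisions or set ribosomal ubiquitin marks, 6 were called higher and 1 lower, with a median of 0.04. None of 7 genes of splitting and peptide release was called, with a median of 0.00. The 10 genes of chain extraction and tail reading had 1 higher and 1 lower, the 16 of mRNA decay 0 and 1, the 9 of UFM1 conjugation 1 and 2, and the 5 of mitochondrial rescue none. Differences between lists were not tested.

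**Figure D5:**
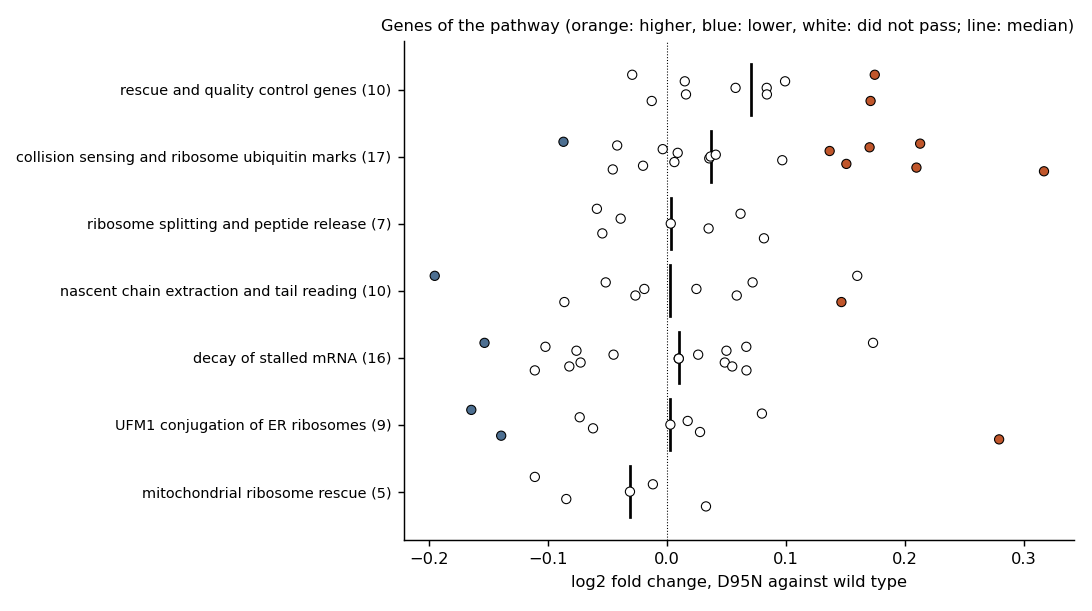
Log2 fold changes of D95N against WT for the 10 genes and for the tested genes of the 6 pathway lists, 1 point per gene, with filled points for genes called by edgeR. The collision-sensing list holds 7 of the 13 called pathway genes, and the splitting and mitochondrial lists hold none.

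Usp10, the deubiquitinase that removes marks from small-subunit proteins, was at 55.3 ± 1.78 CPM in WT (SD, n = 8) and 64.1 ± 3.32 CPM in D95N (SD, n = 7). All 7 D95N libraries lay above all WT libraries, and the log2 fold change was 0.21 ± 0.04 (SE; edgeR quasi-likelihood test, adjusted p = 0.00069). Gcn1, listed under its older symbol Gcn1l1 and known as the collision sensor that turns on the kinase GCN2, rose from 75.2 ± 3.93 to 87.0 ± 4.87 CPM, with 7 of 7 D95N libraries above all WT libraries. On the log2 scale that was 0.21 ± 0.04 (SE; edgeR quasi-likelihood test, adjusted p = 0.00178). Eif2ak4, which encodes GCN2 itself, was called higher too, as were the deubiquitinases Otud3 and Usp9x. Rnf10, a ligase for small-subunit proteins, rose 1.10-fold (log2 0.14 ± 0.03 SE; edgeR quasi-likelihood test, adjusted p = 0.00281), and did not pass after GC and length correction (0.07; edgeR, adjusted p = 0.0545). Rack1, the small-subunit protein on which Zfp598 depends, was the list's only lower gene, at -0.09 ± 0.03 (SE; edgeR quasi-likelihood test, adjusted p = 0.0315). Usp10, Gcn1, Otud3 and Rnf10 passed with each of the 15 libraries left out in turn, while Eif2ak4 passed in 10, Rack1 in 6 and Usp9x in 3 of these. With blood and meningeal marker scores as covariates, 0 genes of the pathway lists were called higher and 0 lower. That fit called 3 genes higher and 7 lower over all tested genes.

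In the remaining lists the calls were few. Elac1, a tRNA-repair enzyme of the tail and chain list, fell to 0.873-fold (log2 -0.20 ± 0.05 SE; edgeR quasi-likelihood test, adjusted p = 0.00533). Nploc4, a cofactor of the segregase VCP that pulls out ubiquitinated chains, was 1.11-fold higher (edgeR, adjusted p = 0.0420), a call kept with 4 of 15 libraries left out in turn. In this tail and chain list, 0 genes were called higher after GC and length correction, with library totals, upper-quartile factors or voom. With no filter, with DESeq2 and without D95N 41 and 42, 1 was. Exosc2, an exosome subunit, was at 0.899-fold (edgeR, adjusted p = 0.0474), kept in 5 of 15. The modifier Ufm1 was at 0.892-fold (edgeR, adjusted p = 0.00809) and its ligase Ufl1 at 0.908-fold (edgeR, adjusted p = 0.0275), whereas the protease Ufsp1 was 1.21-fold higher (edgeR, adjusted p = 0.0188). Ufm1 and Ufsp1 were called with each library left out in turn and Ufl1 in 10 of 15, and Ufl1 did not pass after GC and length correction (-0.07; edgeR, adjusted p = 0.189). Of the lists without a call, the smallest p in the splitting list belonged to the release factor Gspt1, at 0.08 (edgeR, adjusted p = 0.123). In the mitochondrial list it belonged to the peptide release factor Mrpl58, at -0.08 (edgeR, adjusted p = 0.101).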

How the data were processed

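Total RNA of 15 mice was sequenced, and the values analysed are the raw read counts per Ensembl gene that the authors deposited, 1 table per library. Per the submitters' processing notes, STAR, featureCounts and the GRCm38 build were used; versions, annotation, strand setting and treatment of reads with several matches are not given in those sources. Of 22524 gene rows, 22291 matched GENCODE M21, which gave symbols, exons, GC content (22214 genes, longest transcript) and coordinates. Promoters came from RefSeq.

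Counts were filtered with filterByExpr, scaled by TMM and tested with edgeR 4.0.16 in R 4.3.3 (quasi-likelihood, genotype as the only term, all 15 libraries), with Benjamini-Hochberg adjustment over all 14989 tested genes and a threshold of 0.05. Intervals are 95% t intervals. CPM used the effective library size, and log2 CPM a prior count of 0.5. For single genes, the difference of mean log2 CPM was also set against every regrouping of the libraries (exact permutation, two-sided). The fit was tested on simulated data with the same dispersion in both genotypes, which does not cover the larger spread seen in D95N. Depth was 23349381 to 34587082 counts per library, so low genes such as Ankzf1 carry counting error near the spread between WT animals. Alternatives were library totals, upper-quartile factors, no filter, DESeq2 1.42.0, limma 3.58.1 (voom), marker scores as covariates, a spline in GC content and length with 5 degrees of freedom, and leaving out libraries.

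The members and lists were chosen with earlier results of these data known, and the choice of D95N 4 and D95N 28 to leave out and the ratios between genes were chosen after values were seen. Named genes are the 10 members, Rps9, up to 3 called genes by smallest p in each pathway list (otherwise the gene of smallest p), the 2 genes of closest profile to each called member, and genes overlapping a member. Eif2ak4, Otud3, Rack1 and Usp9x fall outside that rule and were named after their values were seen. Exosc6 did not match a row.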

Additional observations from a re-analysis of the deposited data

Results flagged for a closer look

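Of 66 groups of libraries examined for a single library far from the others (7 D95N or 8 WT libraries of a gene), 3 held one, and chance flags about 1 group in 20. Usp9x, a deubiquitinase of the collision-sensing list, was at 171 CPM in WT 32, with the nearest WT library at 186 CPM. Without WT 32 the log2 fold change of Usp9x was 0.13 and did not pass (edgeR, adjusted p = 0.0865), against 0.15 with it (edgeR, adjusted p = 0.0463). Ufm1, the ubiquitin-like modifier, was at 42.7 CPM in D95N 28, with the nearest D95N library at 48.9 CPM. Without D95N 28 the log2 fold change of Ufm1 was -0.13 and passed (edgeR, adjusted p = 0.00738). Rps9 was at 58.4 CPM in WT 24, with the nearest WT library at 64.4 CPM.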

How the results depend on the processing

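No called member changed direction under any alternative run, and no member was called lower under any of them. Tcf25 was called with each library left out in turn (0.15 to 0.19) and in 10 of 11 other settings; with blood and meningeal scores as covariates it was 0.13 (adjusted p = 0.288). The log2 fold change of Pelo was called in 9 of 15 and 6 of 11: it was 0.15 to 0.20 with libraries left out, 0.14 with library totals (adjusted p = 0.0620), 0.20 with blood and meningeal scores (0.322), 0.20 with oligodendrocyte, choroid plexus and striatum scores (0.111), 0.10 after GC and length correction (0.177) and 0.15 without D95N 4 and 28 (0.0944). Ltn1 was 0.13 and Hbs1l 0.11 after GC correction, and Hbs1l 0.12 without D95N 41 and 42, all called. D95N 41 and 42 were the D95N libraries nearest to WT, so leaving them out tends to raise differences between genotypes. Without them 2949 of all tested genes were called higher and 2546 lower, against 2272 and 1744 in the fit reported. With 1 library left out, the log2 fold change of Ltn1 ran from 0.063 to 0.11, the log2 fold change of Hbs1l from 0.075 to 0.11 and the log2 fold change of Ascc3 from 0.047 to 0.13.

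Members called higher, 2 in the fit reported, were 1 with library totals, 0 with blood and meningeal scores, 1 with oligodendrocyte, choroid plexus and striatum scores, 1 without D95N 4 and 28, 3 after GC correction, 3 without D95N 41 and 42, and 1 to 4 with 1 library left out. Pathway genes called higher, 8, were 5, 0 and 5 under the first 3 of these and 5 to 9 with 1 library left out. Those called lower, 5, were 8 with library totals, 8 with upper-quartile factors, 0 with blood and meningeal scores, 2 with the other scores, 3 without D95N 41 and 42, 3 without D95N 4 and 28, and 2 to 5 with 1 library left out. All of these are edgeR fits. The cause of these changes was not tested. Over all genes, the fit with blood and meningeal scores called 10, against 4016. No analysis paired by litter was possible because the labels name no litter, so any likeness within litters was not modelled. Animal numbers are not shared between the genotypes.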

Other observations

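Ratios between genes that act together do not depend on library scaling. After values were seen, 10 pairs were chosen and compared per kilobase by two-sided exact permutation tests, adjusted over the 10. Because of that choice, the p values describe these pairs and do not measure how often chance gives such a difference. Zfp598 over Rack1, the collision ligase over the small-subunit protein it depends on, was 0.278 ± 0.0182 in WT (SD, n = 8) and 0.308 ± 0.0128 in D95N (SD, n = 7), with 5 of 7 D95N libraries above all WT libraries. The log2 difference was 0.15 (exact permutation p = 0.00202, adjusted p = 0.0202), and 0.12 to 0.16 with each library left out in turn. After GC and length correction it was 0.04 (exact permutation p = 0.327).

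Tcf25 over Nemf was 24.7 ± 1.03 in WT and 27.5 ± 2.30 in D95N, and did not pass the adjustment (exact permutation p = 0.0103, adjusted p = 0.0513). Abce1 over Pelo was 1.76 ± 0.120 in WT and 1.58 ± 0.157 in D95N, below all WT libraries in 6 of 7 (exact permutation p = 0.0208, adjusted p = 0.0521). Tcf25 over Ltn1 was 11.5 ± 0.391 in WT and 12.3 ± 0.771 in D95N (exact permutation p = 0.0202, adjusted p = 0.0521). After GC and length correction the log2 differences were 0.08, -0.02 and 0.01 (exact permutation p = 0.114, 0.704 and 0.868). The other 6 pairs, Nemf over Ltn1, Ankzf1 over Vcp, Pelo over Hbs1l, Ascc3 over Ascc2, Ascc3 over Trip4 and Gtpbp2 over Gtpbp1, had adjusted p of 0.271 or above (exact permutation).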
